A study of Mus musculus with 2 samples.

Results

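The Ifitm genes examined here are Ifitm1, Ifitm2 and Ifitm3, 3 of the 7 Ifitm rows among the 32286 features counted. They were chosen by their measured values: Ifitm1 led a presomitic cluster and Ifitm2 differed between T classes in these same libraries, so those patterns are described below without a test. The cells came from the caudal end of E8.5 mouse embryos (day 8.5 of gestation), wild type and of the C57BL/6J strain, pooled over embryos before dissociation, and were profiled with a 10x Genomics 5′ single-cell kit. There was 1 group with 2 libraries, called replicates 1 and 2, and no treated or mutant arm, so every comparison is between cell types inside the tissue. Whether each library had its own embryos is not in the labels. The p-values measure only the scatter of cell-type levels in these 2 libraries, after a shift common to all types of a library is taken out.

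Ifitm proteins are small membrane proteins of the endosome and cell surface, best known for blocking the entry of enveloped viruses, and several of the genes are induced by interferon. Ifitm3 (also called fragilis) is also a classical early marker of mouse primordial germ cells, the precursors of sperm and eggs, and Ifitm1 and Ifitm2 were described beside it in the same lineage. At this stage the tail end of the embryo still supplies new spinal cord and presomitic mesoderm, the tissue that segments into somites, from a caudal epiblast in which T (Brachyury) and Sox2 mark mesodermal and neural fates.

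The 3 genes lie close together on chromosome 7 of GRCm38, the assembly that mm10 names. In the GENCODE M21 annotation Ifitm2 (ENSMUSG00000060591) spans chr7:140954837-140955987 on the minus strand, Ifitm1 (ENSMUSG00000025491) chr7:140967221-140969825 on the plus strand and Ifitm3 (ENSMUSG00000025492) chr7:141009586-141010770 on the minus strand. Ifitm5 and Ifitm6 flank them, and the 5 genes together cover 68967 bp. The stretches below are shown because the windows around the RefSeq starts of the 3 members differ in their matches to an interferon-response motif. For Ifitm1 the RefSeq start lies inside the GENCODE gene, downstream of its first base, and sequence around that first base was not searched. Each runs from 100 bases before the annotated start to 30 bases after it, 5′ to 3′ on the gene's own strand, from RefSeq on GRCm38.p6. Capitals mark matches to the interferon-stimulated response element, spelled GAAANNGAAA and searched on both strands of a window of 250 bases before and 50 bases after the start. The coordinates of the stretches are chr7:140967976-140968105 for Ifitm1, chr7:140955932-140956061 for Ifitm2 and chr7:141010715-141010844 for Ifitm3.
Ifitm1: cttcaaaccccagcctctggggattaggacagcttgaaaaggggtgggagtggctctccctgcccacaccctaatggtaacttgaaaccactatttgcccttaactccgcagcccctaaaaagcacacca
Ifitm2: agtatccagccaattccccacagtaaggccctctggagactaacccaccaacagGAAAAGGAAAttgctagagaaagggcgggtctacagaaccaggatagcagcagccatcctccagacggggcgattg
Ifitm3: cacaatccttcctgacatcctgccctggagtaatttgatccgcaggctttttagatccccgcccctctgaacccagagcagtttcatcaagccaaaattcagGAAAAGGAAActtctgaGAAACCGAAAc

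The Ifitm1 window, around the RefSeq start, held no match, the Ifitm2 window held 1 match, and the Ifitm3 window held 2 matches. Of all 32851 RefSeq promoter windows of 300 bases, 3.44% held at least 1 match. A gamma-activated site, spelled TTCNNNGAA, was found in the Ifitm3 window, where it overlaps the downstream match, and in 8.30% of all windows. Neither a TCF/LEF site (CTTTGAT, in 3.73% of all windows) nor a T-box site (TCACACCT, in 1.28%) was found, on either strand, in the window of any of the 3 genes. A match is a string of letters in the window, and no binding was measured here.

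Cells were kept when a barcode had at least 2000 unique molecular identifiers (UMIs, each standing for 1 captured RNA molecule) and 0.3 to 10% of them from mitochondrial genes. This left 11244 barcodes with a median of 17872.5 UMIs in replicate 1 and 8328 with a median of 13685.5 in replicate 2, and the libraries shared 761 barcode sequences. Cell types were gated by marker lists that contain neither T, Sox2 nor any Ifitm gene, which placed 7551 cells (67.2%) and 5714 cells (68.6%) of replicates 1 and 2. Levels are in CPM, the counts-per-1000000 scale, on which the UMIs of a gene are divided by all UMIs of the cells of a gate in 1 library. In such sums fewer expressing cells and less RNA per cell cannot be told apart, and levels are compared within a gene, not between genes. The libraries differed in makeup: blood-gated cells numbered 0 in replicate 1 and 150 in replicate 2. They also differed within gates. Pou5f1, a pluripotency factor, stood at 80.9 CPM in the neural tube of replicate 1 and 2.44 CPM in that of replicate 2. In caudal epiblast it stood at 76.9 and 1.35 CPM. The list for primitive streak gated 0 cells in both libraries. Cells of the list for amnion had almost no Gabrp (0.591 and 0.898 CPM) and little Postn (10.6 and 1.80 CPM), so they are called the Wnt6 and Bambi gate after the markers they did carry.

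All 3 genes were transcribed in the tissue, Ifitm1 and Ifitm2 in nearly every kept cell and Ifitm3 in a minority. Ifitm1 had 635 CPM in replicate 1 and 553 CPM in replicate 2 over all kept cells, with at least 1 UMI in 94.5% and 91.5% of them. Ifitm2 had 504 and 439 CPM, with a UMI in 95.2% and 94.2% of cells. Ifitm3 had 44.6 and 35.1 CPM, with a UMI in 37.0% and 27.2% of cells. The rest of the family was near the floor. Ifitm5 had 2.79 and 3.73 CPM, Ifitm10 had 1.14 and 1.02 CPM, Ifitm6 was found as 3 and 0 UMIs, and Ifitm7 as 5 and 2 UMIs.

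The 3 genes are near-identical in places, and how reads were split between them is not known. Of the 50-base windows in the annotated transcripts, 48.5% of those of Ifitm2 also occur in another annotated gene, against 5.02% for Ifitm1 and 10.0% for Ifitm3. The genes that share windows with Ifitm2 include Ifitm3 and Gm45717, which overlaps both Ifitm2 and Ifitm5 on the same strand and is not among the counted features. The windows cover whole transcripts, while the kit reads 5′ ends, and the 48.5% was not broken down by gene. By this measure alone, levels of Ifitm2 are the least certain of the 3.

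Ifitm1 was highest in presomitic mesoderm among the 11 types with at least 50 cells in each library. Posterior presomitic mesoderm, gated by Msgn1, Tbx6, Dll1, Dll3, Hes7 and Rspo3, had 1347 CPM in replicate 1 and 1023 CPM in replicate 2 (mean 1185 ± 229, SD, n = 2). Somite followed with 826 and 665 CPM, lateral plate mesoderm with 699 and 606 CPM, and allantois with 450 and 653 CPM. Neural tube had 444 and 414 CPM, caudal epiblast 352 and 472 CPM and the Wnt6 and Bambi gate 375 and 397 CPM. The lowest levels were in endothelium, with 279 and 295 CPM, and in surface ectoderm, with 303 and 114 CPM. The highest type exceeded the lowest 4.82-fold in replicate 1 and 8.98-fold in replicate 2. Ranked by mean level, only posterior presomitic mesoderm against somite, and the Wnt6 and Bambi gate against endothelium, were neighbours whose libraries did not overlap, and the other 8 of 10 neighbouring pairs did overlap. The second of these depended on the gate: with the stricter gate of 3 markers the Wnt6 and Bambi cells had a mean of 217 CPM, below endothelium at 270 CPM. Because Ifitm1 was chosen for its presomitic level, the top place is a description.

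In 3 types, intermediate mesoderm, gut endoderm and surface ectoderm, the libraries differed more than 2-fold in Ifitm1. Smaller differences beyond counting error were also present, among them in posterior presomitic mesoderm, caudal epiblast, somite and allantois. Intermediate mesoderm had 1050 CPM in replicate 1 and 211 CPM in replicate 2, and its gate held different cells in each. Osr1, an early intermediate and lateral mesoderm gene, stood at 352 and 139 CPM, and Pax2, a nephric gene, at 37.3 and 287 CPM in replicates 1 and 2. Split by those genes after the values were seen, intermediate mesoderm cells with a Pax2 or Pax8 UMI had 825 CPM of Ifitm1 in replicate 1 (59 cells) and 195 CPM in replicate 2 (125 cells). Cells without either had 1190 CPM (96 cells) and 327 CPM (20 cells), so Ifitm1 was lower in replicate 2 in both kinds of cell. In gut endoderm Ifitm1 had 743 and 348 CPM, and the gut markers Sox17 (329 and 48.4 CPM), Trh (160 and 16.7 CPM) and Spink1 (1440 and 464 CPM) were also higher in replicate 1. Gut endoderm cells with Cdx2, a hindgut factor, had 740 and 341 CPM of Ifitm1, against 761 and 416 CPM in those without it, so replicate 1 was higher in both. In surface ectoderm replicate 1 was the higher library as well. The part of cell makeup in these differences was not tested.

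Ifitm2 was spread more evenly. Its level in posterior presomitic mesoderm was 718 and 609 CPM (mean 663 ± 77.4, SD, n = 2), the highest of the 11 types, and in surface ectoderm 369 and 272 CPM, the lowest. The highest type exceeded the lowest only 1.95-fold in replicate 1 and 2.24-fold in replicate 2. Allantois (555 and 572 CPM), intermediate mesoderm (664 and 396 CPM) and lateral plate mesoderm (551 and 507 CPM) ranked next by mean. The Wnt6 and Bambi gate had 460 and 533 CPM (a mean of 496 CPM, and 330 CPM with the stricter gate), endothelium 518 and 397 CPM, and gut endoderm 442 and 383 CPM. Caudal epiblast (419 and 349 CPM), somite (404 and 356 CPM) and neural tube (434 and 285 CPM) came near the end. Posterior presomitic mesoderm and allantois were the only neighbours in the order whose libraries did not overlap.

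The order of the types for Ifitm3 was led by the Wnt6 and Bambi gate, surface ectoderm, endothelium and gut endoderm and ended with caudal epiblast and somite. Endothelium had 74.8 CPM in replicate 1 and 75.3 CPM in replicate 2, surface ectoderm 65.3 and 91.8 CPM, and gut endoderm 108 and 38.5 CPM. The Wnt6 and Bambi gate had 64.2 and 131 CPM, but with a stricter gate of 3 markers its mean was 21.6 CPM, against 97.7 CPM, so its place at the top rests on the gate. Neural tube had 46.2 and 41.8 CPM, lateral plate mesoderm 33.3 and 31.0 CPM, and intermediate mesoderm 48.3 and 22.4 CPM. Posterior presomitic mesoderm ranked below all of these with 24.1 and 18.0 CPM, followed by allantois with 20.2 and 12.7 CPM, caudal epiblast with 18.5 and 10.8 CPM, and somite with 14.0 and 8.62 CPM. No fold between the ends of this order is given, since the top depends on the gate. Somite, at the bottom, was not set apart from background at the depth of these cells. Lateral plate and posterior presomitic mesoderm were the only neighbours in the order without overlap.

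**Figure D1:**
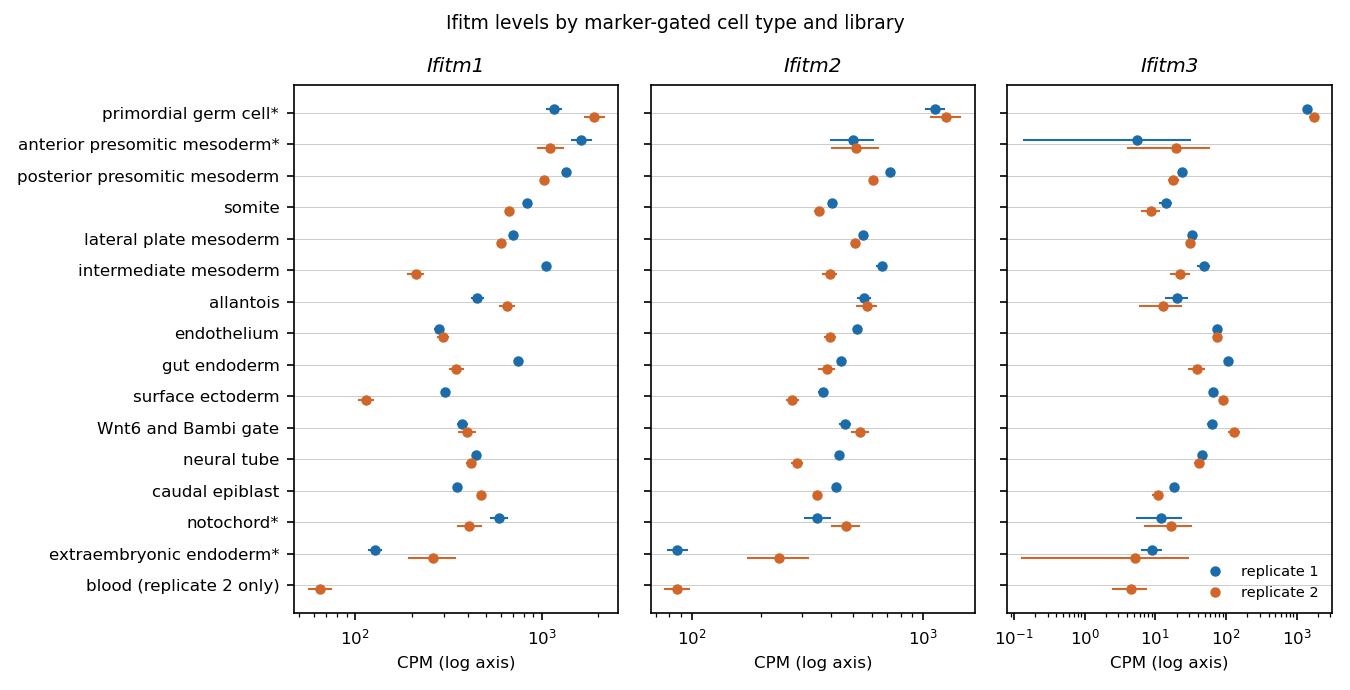
Levels of Ifitm1, Ifitm2 and Ifitm3 in CPM (log axes) by marker-gated cell type. Points are libraries, bars are exact Poisson intervals (95%, counting error only), and an asterisk marks gates with under 50 cells in 1 or both libraries. Ifitm1 peaks in presomitic mesoderm among the larger gates, and all 3 genes are high in the primordial germ cell gate.

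Across the 11 types the profile of Ifitm1 ran with that of Ifitm2, with a Pearson correlation of log2(CPM + 10) of 0.62 in replicate 1 and 0.65 in replicate 2. Against Ifitm3 it was −0.27 and −0.59. These points share libraries and depth, and the values are descriptions. Among the 7682 genes reaching 20 CPM in a type in both libraries, the genes most like Ifitm1, by the lower of the libraries' correlations, were Frzb (0.76), Cux1 (0.76), Pdgfra (0.74), 6330403K07Rik (0.74) and Slc38a2 (0.73). Frzb encodes a secreted Wnt antagonist and Pdgfra a receptor of mesodermal cells. Those most like Ifitm2 were Usp47 (0.75), 2610528A11Rik (0.74), Atp11b (0.70), Ythdc1 (0.70) and Lef1os1 (0.70). Those most like Ifitm3 were Itga3 (0.85), an epithelial integrin subunit, Myo10 (0.83), Shoc2 (0.83), Fam89a (0.82) and Tusc3 (0.79).

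Blood and extraembryonic endoderm were among the lowest gates and were taken as a measure of free RNA, though low expression in them was not tested. Cells were thinned to 9000 UMIs for this, and shallower cells were left out. Blood of replicate 2 (138 cells) had an Ifitm1 UMI in 23.9% of cells (exact Clopper-Pearson 95% interval 17.1 to 31.9%), an Ifitm2 UMI in 42.0% and an Ifitm3 UMI in 1.45%. Extraembryonic endoderm of replicate 1 (158 cells) had them in 38.6%, 31.6% and 6.33%. Before thinning, the shares were 35.3%, 61.3% and 7.33% in blood and 58.0%, 45.9% and 17.7% in extraembryonic endoderm, whose median depths were 22596.5 and 28902 UMIs. Posterior presomitic mesoderm had Ifitm1 in 99.9% and 99.7% of thinned cells, and surface ectoderm in 80.5% and 41.9%, above extraembryonic endoderm in replicate 1 and blood in replicate 2. Extraembryonic endoderm of replicate 2 had 12 such cells and was not used for this. For Ifitm3, somite had 10.2% in replicate 1 (7.31 to 13.7%), whose interval overlaps that of extraembryonic endoderm (3.08 to 11.3%), and 6.01% in replicate 2 (3.80 to 8.96%), whose interval overlaps that of blood (0.176 to 5.14%). In CPM somite was higher in both libraries. It had 14.0 against 9.01 in extraembryonic endoderm of replicate 1, and 8.62 against 4.47 in blood of replicate 2. Overlapping intervals cannot tell a low level from background, so Ifitm3 in somites was not set apart from background at this depth. Allantois had 17.0% in replicate 1 (9.87 to 26.6%, 88 cells) and 6.12% in replicate 2 (1.28 to 16.9%, 49 cells). These wider intervals overlap the same gates, so Ifitm3 in allantois was not set above background either. Endothelium had 44.7% and 39.9%, and surface ectoderm 38.4% and 52.6%.

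From caudal epiblast through presomitic mesoderm to somite, Ifitm1 was higher and then lower again in both libraries. Caudal epiblast had 352 CPM in replicate 1 and 472 CPM in replicate 2. Cells scoring between caudal epiblast and posterior presomitic mesoderm, which no gate took, had 697 CPM (393 cells) and 678 CPM (233 cells). Posterior presomitic mesoderm followed with 1347 and 1023 CPM. Cells between the posterior and anterior presomitic lists had 1543 CPM (43 cells) and 1143 CPM (30 cells). Anterior presomitic mesoderm, gated by Mesp2, Ripply2 and related segmentation genes, had 1625 CPM (13 cells) and 1107 CPM (11 cells). Cells between anterior presomitic mesoderm and somite had 1479 and 906 CPM, and somite had 826 and 665 CPM. In replicate 1 the values of the 3 groups around anterior presomitic mesoderm lie within each other's Poisson intervals, so no order among them is given. Toward the neural side levels stayed near those of caudal epiblast: cells between caudal epiblast and neural tube had 364 CPM (215 cells) and 407 CPM (153 cells).

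Ifitm2 had its highest value of the series in posterior presomitic mesoderm. It stood at 419 and 349 CPM in caudal epiblast, 562 and 530 CPM in the cells between, 718 and 609 CPM in posterior presomitic mesoderm, 496 and 511 CPM in anterior presomitic mesoderm and 404 and 356 CPM in somite. Ifitm3 stayed low throughout, with 18.5 and 10.8 CPM in caudal epiblast, 24.5 and 15.1 CPM in the cells between, and 24.1 and 18.0 CPM in posterior presomitic mesoderm. It had only 1 and 3 UMIs in anterior presomitic mesoderm of replicates 1 and 2. Ifitm5, better known from bone-forming cells, was more concentrated in posterior presomitic mesoderm than Ifitm2. It had 17.4 CPM (315 UMIs) and 19.6 CPM (231 UMIs) in posterior presomitic mesoderm, against 1.15 and 2.21 CPM in caudal epiblast and 0.127 and 1.04 CPM in somite. Ifitm2 and Ifitm5 both overlap Gm45717, and its part in the Ifitm5 counts was not tested.

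**Figure D2:**
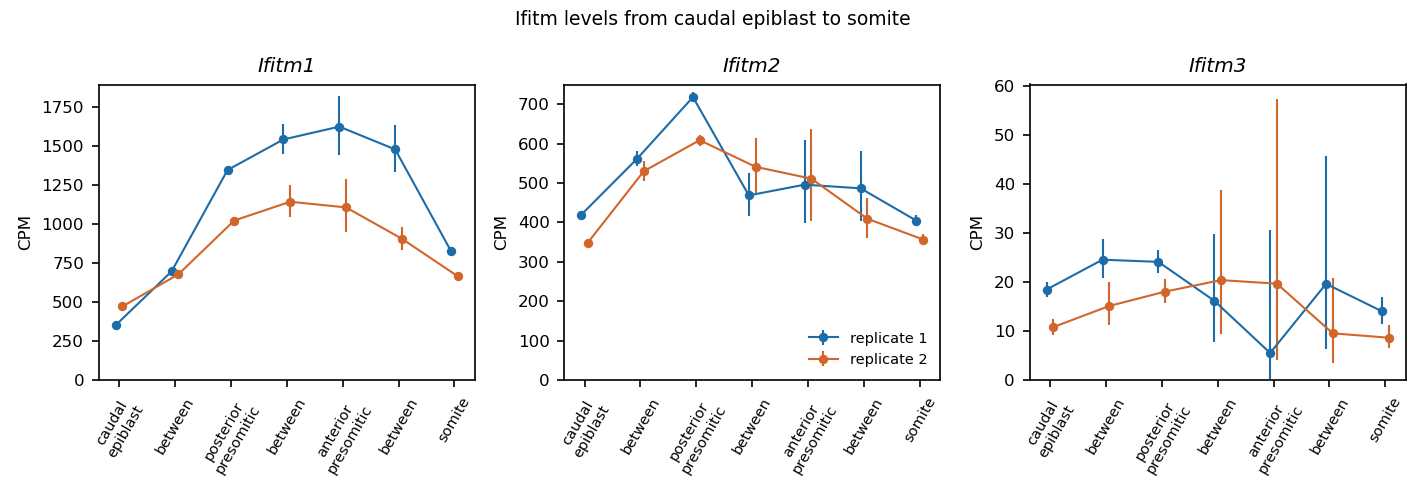
CPM of each gene (linear axes from 0) in caudal epiblast, posterior and anterior presomitic mesoderm and somite, with the ungated cells scoring between neighbouring lists. Lines join the values of 1 library and bars are exact Poisson intervals (95%, counting error only). Ifitm1 runs from 352 and 472 CPM in caudal epiblast to 1347 and 1023 CPM in posterior presomitic mesoderm and is lower in somite, at 826 and 665 CPM.

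Within the caudal epiblast gate, cells were split by T and Sox2 UMIs after thinning to 9500 UMIs. Ifitm2 had 444 CPM in T-only cells of replicate 1 (650 cells) and 399 CPM in those of replicate 2 (351 cells), against 388 CPM (156 cells) and 301 CPM (142 cells) in Sox2-only cells. Cells with both genes had 404 CPM (91 cells) and 308 CPM (76 cells), and cells with neither 399 and 331 CPM. Both libraries thus had more Ifitm2 in T-only than in Sox2-only cells, by a mean of 0.30 ± 0.15 on the log2 scale (SD, n = 2). Ifitm1 had the same direction, with 377 and 513 CPM in T-only cells against 296 and 436 CPM in Sox2-only cells (0.29 ± 0.08). Ifitm3 differed in direction between the libraries, with 16.6 and 11.8 CPM in T-only cells against 20.3 and 10.4 CPM in Sox2-only cells. Since Ifitm2 was chosen for this difference, no test is given. In the presomitic gate Sox2-only cells numbered only 7 and 5, so the split was not read there.

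**Figure D3:**
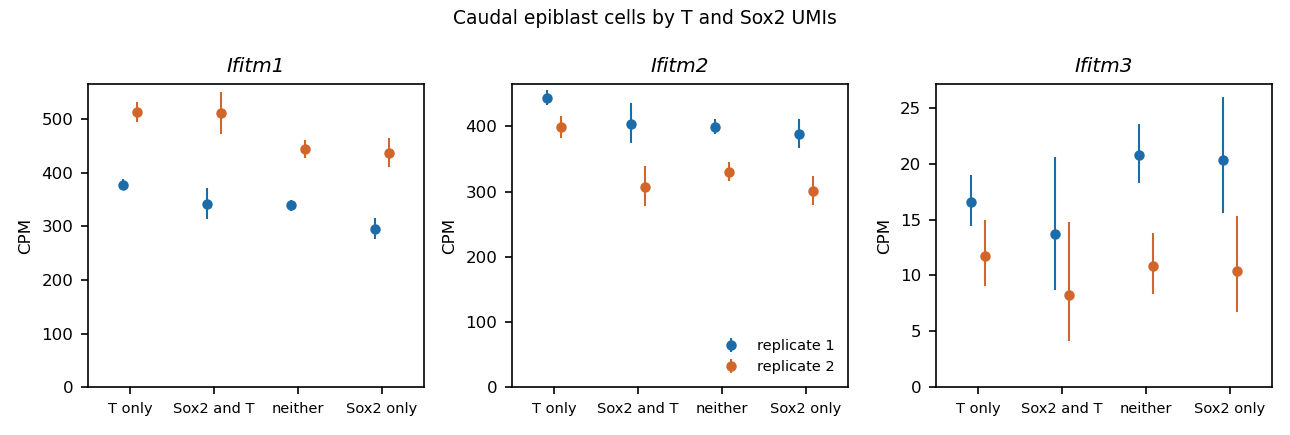
CPM of each gene (linear axes from 0) in caudal epiblast cells called by T and Sox2 UMIs after thinning. Points are libraries and bars are exact Poisson intervals (95%, counting error only). Ifitm2 is higher in T-only cells, at 444 and 399 CPM, than in Sox2-only cells, at 388 and 301 CPM.

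All 3 genes were high together in the gate for primordial germ cells, which rested on Dppa3, Prdm1, Prdm14, Nanos3, Dnd1 and Tfap2c. The gate held 23 cells in replicate 1 and 9 in replicate 2, too few for the fit, so these values are a description. Ifitm3 had 1398 CPM (95% Poisson interval 1290 to 1512) in replicate 1 and 1728 CPM (1525 to 1951) in replicate 2. It was among the 10 genes with the largest log2 ratio over the median of the other gates in both libraries. Ifitm1 had 1159 and 1906 CPM, and Ifitm2 had 1128 and 1260 CPM. In no other gate did Ifitm3 pass 131 CPM in either library. Among the gate's own markers, Dppa3, an egg and germ cell chromatin factor, had 348 and 435 CPM in it against 1.36 and 0.805 CPM over all kept cells, and Nanos3, an RNA-binding protein germ cells need to survive, had 46.9 and 52.8 CPM in it. The other gating markers had 62.5 and 125 CPM (Prdm1), 35.7 and 19.8 CPM (Prdm14), 194 and 119 CPM (Dnd1) and 221 and 218 CPM (Tfap2c). Of genes not used in gating, Pou5f1 had 1090 and 1313 CPM, Kit, the receptor for stem cell factor, 266 and 376 CPM, and Alpl, an alkaline phosphatase, 205 and 330 CPM.

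Within the gate, every cell with Dppa3 also had Ifitm3. All 19 gated cells with a Dppa3 UMI in replicate 1 and all 9 in replicate 2 had Ifitm3 UMIs, 5 to 65 per cell and 17 to 49 per cell. The gate of replicate 1 also took 4 cells without Dppa3, of which 1 had Ifitm3 (4 UMIs). Germ cell gates made up 0.205% and 0.108% of kept cells and held 6.76% and 6.39% of their Ifitm3 UMIs. The median cell had 10.7 and 17.1 Ifitm3 UMIs per 10000 UMIs, while the medians of lateral plate mesoderm, somite and caudal epiblast were 0 and that of endothelium was 0.529 and 0.464. The highest lateral plate cell had 15.7 per 10000 UMIs in replicate 1, above the germ cell median of 10.7 there. In replicate 2 it had 9.42, below all 9 gated germ cells, of which the lowest had 9.93. Gated cells with Dppa3 began at 3.94 in replicate 1, and cells of that gate without Dppa3 began at 0. Single cells of other gates also came above the lowest gated cell with Dppa3. The highest had 11.7 in gut endoderm and 10.5 in endothelium of replicate 1, and 11.9 in the Wnt6 and Bambi gate of replicate 2.

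**Figure D4:**
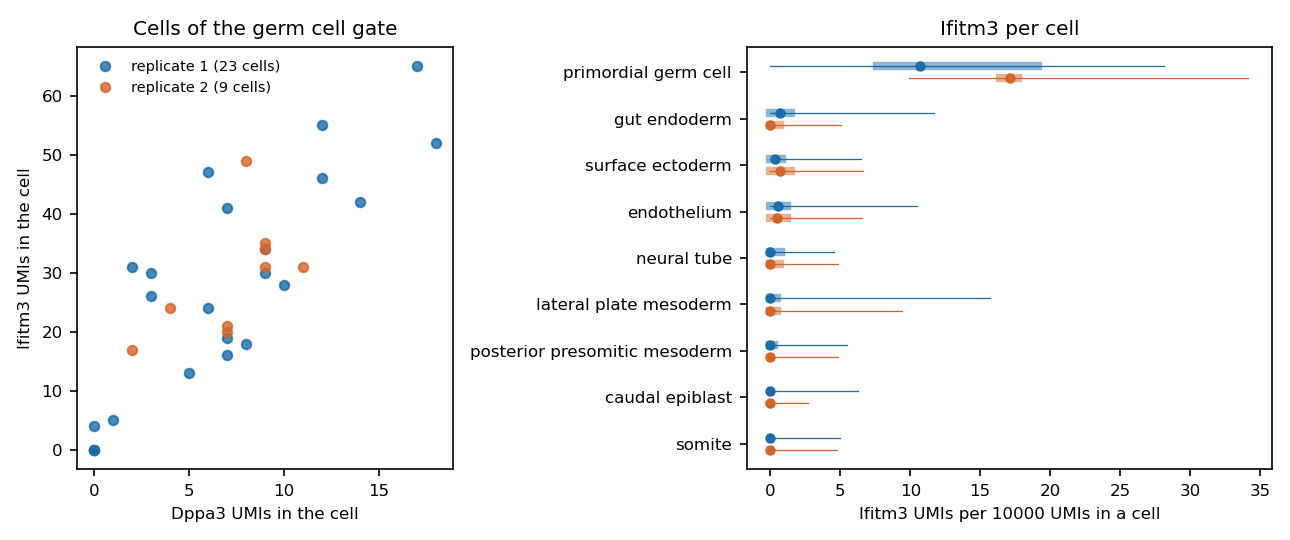
Left, Ifitm3 against Dppa3 UMIs in each of the 23 and 9 cells of the germ cell gate. Right, Ifitm3 UMIs per 10000 UMIs of a cell by gate and library, with the median (point), quartiles (thick bar) and range (line). Every gated cell with Dppa3 has Ifitm3, and the germ cell medians of 10.7 and 17.1 stand above the quartiles of the other gates.

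Contrasts that had no part in choosing the genes were tested with edgeR's quasi-likelihood test on counts summed per type and library, with library as a block and Benjamini-Hochberg adjustment over all genes of a contrast. Over 6 contrasts, 3 of 18 tests passed an adjusted p of 0.05. Of all genes tested, 0.513% (allantois) to 32.7% (endothelium) passed in a contrast, so this count alone is no result about the members. The types of a fit share 1 estimate of spread per gene, from 2 libraries.

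Endothelium carried more Ifitm3 than lateral plate mesoderm, its mesodermal neighbour. Ifitm3 had 74.8 and 75.3 CPM in endothelium, against 33.3 and 31.0 CPM in lateral plate mesoderm, and the groups did not overlap. The log2 fold change was 1.34 ± 0.35 (SE), with an edgeR adjusted p of 0.0079. Ifitm1 went the other way without passing, at 279 and 295 CPM in endothelium against 699 and 606 CPM in lateral plate mesoderm (log2 fold change −1.05 ± 0.46, edgeR adjusted p = 0.0945). Ifitm2 had 518 and 397 CPM in endothelium against 551 and 507 CPM (−0.09 ± 0.15, edgeR adjusted p = 0.669). Of all genes tested, 32.7% passed in this contrast, so 1 of 3 members is near that share.

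Somites carried less Ifitm3 than lateral plate mesoderm. Ifitm3 had 14.0 and 8.62 CPM in somite, against 33.3 and 31.0 CPM in lateral plate mesoderm, with a log2 fold change of −1.44 ± 0.40 and an edgeR adjusted p of 0.024, where 12.7% of all genes passed. As given above, the share of somite cells with Ifitm3 overlapped the free RNA measure, so the fold rests on a level not set apart from background. Without library as a block the edgeR adjusted p was 0.107. Ifitm2 had 404 and 356 CPM in somite against 551 and 507 CPM (−0.43 ± 0.15, edgeR adjusted p = 0.0754), and Ifitm1 826 and 665 CPM against 699 and 606 CPM (0.24 ± 0.45, edgeR adjusted p = 0.819).

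Gut endoderm carried more Ifitm1 than surface ectoderm, another epithelium. Ifitm1 had 743 and 348 CPM in gut endoderm, against 303 and 114 CPM in surface ectoderm, which do not overlap. The log2 fold change was 1.41 ± 0.47 (edgeR adjusted p = 0.043), in a contrast where 21.7% of all genes passed. The call was lost with DESeq2 (adjusted p = 0.0542), without the lower mitochondrial bound (edgeR adjusted p = 0.0563) and without library as a block (edgeR adjusted p = 0.155). Ifitm2 had 442 and 383 CPM in gut endoderm against 369 and 272 CPM (0.38 ± 0.15, edgeR adjusted p = 0.09). Ifitm3 had 108 and 38.5 CPM in gut endoderm against 65.3 and 91.8 CPM, opposite directions in the libraries (−0.05 ± 0.36, edgeR adjusted p = 0.959).

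Surface ectoderm against neural tube gave no call for any member, where 24.5% of all genes passed. Ifitm1 had 303 and 114 CPM in surface ectoderm against 444 and 414 CPM in neural tube (−1.15 ± 0.47, edgeR adjusted p = 0.0874). Ifitm3 had 65.3 and 91.8 CPM against 46.2 and 41.8 CPM (0.80 ± 0.36, edgeR adjusted p = 0.126). Both differences had 1 direction in both libraries but unequal size: without replicate 1 the log2 fold changes were −1.94 for Ifitm1 and 1.05 for Ifitm3, and without replicate 2 they were −0.56 and 0.49. Ifitm5, the family member outside the 3, was lower in surface ectoderm, at 0.431 and 0 CPM against 2.76 and 4.87 CPM in neural tube (−3.09 ± 0.75, edgeR adjusted p = 0.00819), a fold on 3 and 0 UMIs in surface ectoderm.

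Allantois against lateral plate mesoderm gave no call, in a contrast where only 0.513% of all genes passed. Ifitm3 had 20.2 and 12.7 CPM in allantois against 33.3 and 31.0 CPM in lateral plate mesoderm (−0.93 ± 0.53, edgeR adjusted p = 0.545), and the groups did not overlap. The allantois level rests on 37 and 10 UMIs and, as given above, was not set above the free RNA measure. Ifitm1 had 450 and 653 CPM in allantois against 699 and 606 CPM, in opposite directions (−0.26 ± 0.47, edgeR adjusted p = 0.89), and Ifitm2 had 555 and 572 CPM against 551 and 507 CPM (0.06 ± 0.15, edgeR adjusted p = 0.929). Inside the lateral plate, Foxf1 marks the splanchnic layer that covers the gut and Prrx1 the somatic layer of body wall and limb. Ifitm3 had 26.0 and 23.4 CPM in cells with Foxf1 alone (781 and 602 cells) against 68.3 CPM (82 UMIs) in replicate 1 and 49.998 CPM (168 UMIs) in replicate 2 in cells with Prrx1 alone (81 and 237 cells). The groups did not overlap, but the log2 fold change of −1.21 ± 0.39 did not pass (edgeR adjusted p = 0.138), where 1.55% of all genes did. Ifitm2 had 520 and 465 CPM in Foxf1 cells against 613 and 556 CPM in Prrx1 cells (−0.23 ± 0.15, edgeR adjusted p = 0.542), and Ifitm1 622 and 592 CPM against 765 and 477 CPM (0.04 ± 0.44, edgeR adjusted p = 1).

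**Figure D5:**
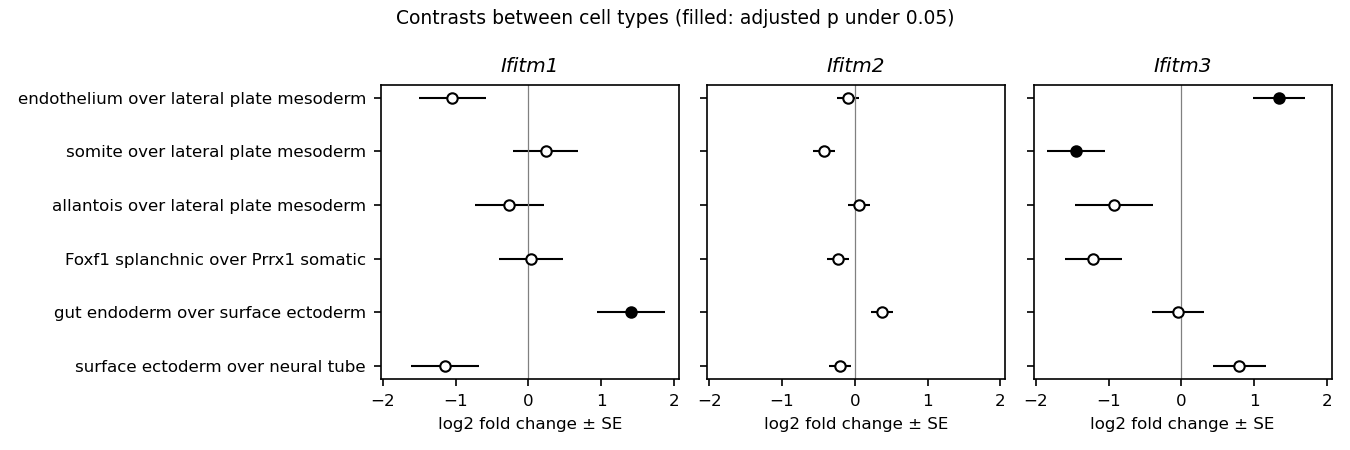
Log2 fold changes (± SE) of the 3 genes in the 6 tested contrasts, named as the upper type over the lower. Filled points have an edgeR adjusted p under 0.05: Ifitm3 in endothelium (1.34) and somite (−1.44) over lateral plate mesoderm, and Ifitm1 in gut endoderm over surface ectoderm (1.41).

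Genes of interferon signalling and response were mostly low in the tissue. Of a list of 39, 37 were among the features, 10 reached 20 CPM in a type in both libraries, and 2 did so in all 11 types: Samhd1, which depletes nucleotides, and the receptor kinase Jak1. The receptor chains Ifnar1 (35.0 and 41.1 CPM in gut endoderm) and Ifngr2 (57.9 and 60.4 CPM in caudal epiblast) were present. So were the antigen-presentation genes H2-D1 (109 and 38.2 CPM in surface ectoderm), H2-K1 (25.3 and 77.1 CPM in neural tube) and B2m (40.1 and 29.9 CPM in neural tube). Isg15, Ifit3 and Irf7, typical induced genes named after their values were seen, were near 0: in the type with the highest mean, Isg15 had 0.925 and 1.10 CPM, Ifit3 0.132 and 0.216 CPM and Irf7 0.546 and 1.27 CPM. In the germ cell gate the list went both ways. Isg15 had 17.9 and 13.2 CPM there, Bst2, another membrane restriction factor, 87.1 and 112 CPM, Trim25 53.6 and 158 CPM and Irf1 64.7 and 13.2 CPM. B2m and H2-D1 each had 2.23 and 0 CPM, and Ifit1, Ifit2 and Ifit3 had 0 CPM in both libraries. The gate held only 447882 and 151604 UMIs, so low levels in it rest on few UMIs. Of the tetraspanin and membrane list, Cd81 (675 and 553 CPM in endothelium) and Nedd4 (979 and 1104 CPM in somite), a ubiquitin ligase known to act on Ifitm3 in human and mouse cells, were present in every type.

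In the endothelium contrast 15 of the 25 interferon genes tested passed, where 32.7% of all genes did, 12 higher and 3 lower, with a median log2 fold change of 0.72 against −0.04 over all genes. The 8 with the lowest adjusted p were Bst2 (38.3 and 44.6 CPM in endothelium), Ifngr2 (1.47 ± 0.19, edgeR adjusted p = 1.7e-05), Jak1 (1.21 ± 0.16), Trim25 (1.45 ± 0.27), Oasl2 (2.89 ± 0.52), Ifngr1 (2.04 ± 0.40) and Lgals3bp (2.58 ± 0.53), all higher, and Ifit2, which was lower (−1.71 ± 0.37, edgeR adjusted p = 0.00177). The edgeR adjusted p of Bst2 was 6.4e-07. In somite over lateral plate mesoderm 3 of 25 passed, near the 12.7% of all genes, all lower: Jak1 (−0.67), Ifngr1 (−1.57) and Ifngr2 (−0.89). In gut endoderm over surface ectoderm 6 were higher and 1, Tap1, was lower (−4.54 ± 0.58, edgeR adjusted p = 6.98e-05), 7 of 25 beside 21.7% of all genes. The 6 were Ifngr1 (1.85), Ddx58 (1.66), B2m (1.08), Ifngr2 (1.04), Trim25 (0.96) and Ifnar1 (0.46). In surface ectoderm over neural tube 4 were higher and 2 lower, among them B2m (−1.50 ± 0.17, edgeR adjusted p = 9.59e-06), 6 of 25 beside 24.5% of all genes. In allantois over lateral plate mesoderm and in Foxf1 over Prrx1 cells, 0 passed in edgeR. The medians in these 5 contrasts were −0.26, 0.44, 0.18, 0.07 and 0.15, in the order given.

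Of the 10 tetraspanin and membrane genes, 4 were higher and 1 lower in endothelium (32.7% of all genes), with Cd9 (3.37 ± 0.21) and Cd81 (1.35 ± 0.09) among the higher and Ly6e (−2.28 ± 0.30) the lower. The counts were 3 higher and 2 lower in surface ectoderm over neural tube (24.5% of all genes), 3 and 0 in gut endoderm over surface ectoderm (21.7%), 2 and 1 in somite over lateral plate mesoderm (12.7%), and 0 in allantois over lateral plate mesoderm and in Foxf1 over Prrx1 cells. Of the 7 germ cell genes tested, 1 was higher (Kit) and 1 lower (Pou5f1) in endothelium (32.7% of all genes). In surface ectoderm over neural tube 3 were higher and 2 lower (24.5%), and in gut endoderm over surface ectoderm 2 were higher and 3 lower (21.7%). In somite over lateral plate mesoderm 0 were higher and 3 lower (12.7%). The counts of 3 of 10 membrane genes in gut endoderm and 2 of 7 germ cell genes in endothelium are near those shares and no result about the lists. The other germ cell counts given stood above the shares, as did the membrane counts in endothelium, surface ectoderm and somite. The lists were not tested as sets. Pou5f1 differed between the libraries, as given above.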

How the data were processed

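Deposited values are counts, whole UMIs per gene and barcode, made by the authors with Cell Ranger 6.1.1 on mm10, per the submitters' processing notes. The annotation was not given in the sources used here. Deposited barcodes numbered 30449 and 18245, each with at least 500 UMIs, and 207597029 and 116747549 UMIs were in kept cells. Barcodes with at least 2000 UMIs and 0.3 to 10% mitochondrial UMIs were kept. A cell took the marker list with the highest mean of markers, each scaled to its 99th percentile, when at least 2 markers had a UMI and the score was 1.5 times the next. Doublets were kept; Scrublet (Scanpy 1.11.5), run as an alternative, marked 9.81% and 6.57%, against expected rates of 24.4% and 14.6%. Counts were summed per gate and library and tested with edgeR 4.0.16 in R 4.3.3 (TMM, filterByExpr, quasi-likelihood, Benjamini-Hochberg, prior count 2). Library was a block because gates are parts of 1 library. The code was tested on simulated data. DESeq2 1.42.0 was an alternative. Intervals cover counting error only. Members, lists and tests were chosen with earlier results of these data known. Genes named were every Ifitm row, the 5 genes most like each member, up to 8 interferon genes by level and up to 8 past the threshold in a contrast, and germ cell genes reaching 20 CPM. Exceptions are said to be so in the text, and the members of the tetraspanin and membrane list were named after their values were seen.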

Additional observations from a re-analysis of the deposited data

Results flagged for a closer look

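Barcodes with at least 2000 UMIs but under 0.3% mitochondrial UMIs, left out of the report, also held the 3 genes, above the limit that a count of 0 allows. These numbered 11242 in replicate 1 and 5184 in replicate 2, with medians of 5598.5 and 4830 UMIs. Ifitm1 had 944 CPM in such barcodes of replicate 1 and 840 CPM in those of replicate 2, against 635 and 553 CPM in kept cells. Ifitm2 had 654 and 542 CPM, against 504 and 439 CPM. Ifitm3 had 37.5 and 36.6 CPM, against 44.6 and 35.1 CPM. Within gates the ratio of such barcodes to kept cells had a median of 1.37 for Ifitm1 (0.905 to 1.67 over 20 pairs of gate and library), 1.14 for Ifitm2 and 1.06 for Ifitm3. With 2 libraries in 1 group, no sample could be tested as standing apart.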

How the results depend on the processing

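Of 144 tests under 8 alternatives, 131 kept their direction and side of the threshold. Ifitm3 in endothelium over lateral plate mesoderm passed under all 8 (adjusted p 0.000609 to 0.0484). Without a replicate block, Ifitm3 in somite (−1.43, adjusted p = 0.107) and Ifitm1 in gut endoderm (1.39, adjusted p = 0.155) lost their calls, and Ifitm1 in Foxf1 over Prrx1 cells turned (−0.0074, edgeR adjusted p = 1). Ifitm1 in gut endoderm also missed with DESeq2 (1.44) and with no lower mitochondrial bound (1.35). With no filter on low counts Ifitm3 in Foxf1 cells (−1.17), Ifitm1 in endothelium (−1.11), Ifitm2 in somite (−0.47) and Ifitm1 in surface ectoderm (−1.15) passed, and Ifitm2 in allantois turned (−0.0082). With a stricter gate Ifitm1 in endothelium (−1.13), Ifitm2 in gut endoderm (0.36) and Ifitm2 in somite (−0.42) passed. The causes were not tested. With 1 library left out, a value with no test, Ifitm1, Ifitm2 and Ifitm3 in endothelium ran from −1.25 to −0.98, −0.30 to −0.021 and 1.23 to 1.33. In allantois they ran from −0.74 to 0.022, −0.10 to 0.090 and −1.36 to −0.82. Ifitm1 and Ifitm2 ran from −0.20 to 0.33 and −0.25 to −0.14 in Foxf1 cells, and from 0.16 to 0.23 and −0.48 to −0.46 in somite. Ifitm3 in gut endoderm ran from −1.27 to 0.71. Over neural tube, Ifitm1 and Ifitm3 in surface ectoderm ran from −1.94 to −0.56 and 0.49 to 1.05. Genes called without the replicate block numbered 2592, against 4517 with it, in endothelium, 1329 against 2996 in gut endoderm, 734 against 1754 in somite, 1752 against 3386 in surface ectoderm, 10 against 71 in allantois and 36 against 212 in Foxf1 cells. In allantois and Foxf1 cells DESeq2 called 189 and 327, and no filter 241 and 507; a stricter gate called 108 in allantois. Of levels, 163 moved by less than 1 SD and 18 by more. Depth limits Ifitm3 in the anterior presomitic gate, which held 1 and 3 UMIs of it.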
